A study of Mus musculus with 4 samples.

Results

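The regulators of G protein signalling (RGS proteins) form a family of GTPase-activating proteins, and 10 of their genes are described here: *Rgs2*, *Rgs3*, *Rgs4*, *Rgs5*, *Rgs10*, *Rgs12*, *Rgs14*, *Rgs16*, *Rgs17* and *Rgs19*. The members are all rows of the deposited transcript table that carry one of these symbols, which gave 23 transcripts of 9 genes out of 34200 transcripts of 21945 genes. No row of *Rgs14* was found, and this gene was not analysed here. The group was chosen on a measured value, since *Rgs16* had the largest rise among well-expressed transcripts. The differences between conditions and the calls are therefore given as descriptions, and no call is read as a test of the group. A transcript is termed called where its q-value in the likelihood ratio test of Sleuth was under 0.05, and counts are normalised estimated counts. Among transcripts called higher with a mean of at least 100 counts, *Rgs16* stood at a log2(fold change) of 3.08 and the next transcript, of *Sema7a*, at 2.58.

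Poly(A)-selected, stranded RNA-seq was made from NIH/3T3 cells, an immortalised line of mouse embryonic fibroblasts, 48 h after transfection with 10 nM siRNA. In the knockdown (KD) group 2 libraries came from cells that received a pair of *Setd2*-specific siRNAs together. In the control group, called WT after its label, 2 libraries came from cells with normal *Setd2* that received a Scrambled, non-targeting siRNA, so transfection itself is shared by both groups. SETD2 deposits the histone mark H3K36me3 along transcribed genes. The KD is transient and in 1 cell line, and the table holds group means and variances, not the values of single libraries, so the depth of each library is unknown.

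*Setd2* itself was at 3680 counts in WT and 923 in KD (log2(fold change) = -1.99, SE 0.09), a level 74.9% lower. All 10 fibroblast markers had rows, with a summed level of 1259355 counts in WT and 1131849 in KD. Of these 4 had a transcript called higher and 3 one called lower, against 10.1% and 7.43% of all genes. Of 14 markers of other cell types 8 had rows, and their summed level was 563 counts in WT and 663 in KD. None of the 8 had a called transcript, where 17.4% of all genes had one. The highest of these was *Cd68*, with 303 counts in WT and 391 in KD, while *Adgre1* stood at 0 in KD. The part of these markers in the results on RGS genes was not tested, and in bulk RNA fewer cells of a type cannot be told apart from less RNA per cell. *Actb*, a cytoskeletal gene often used for scaling, was itself called higher, by 0.46 on the log2 scale, and relative to it the median of all transcripts lay at -0.47.

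When a receptor is activated, the alpha subunit of a heterotrimeric G protein binds GTP and separates from the beta and gamma subunits. RGS proteins bind the active alpha subunit through their RGS domain and speed up GTP hydrolysis, which ends the signal of both parts. *Rgs2*, *Rgs3*, *Rgs4*, *Rgs5* and *Rgs16* belong to the R4 subfamily, mostly small proteins acting on the Gi and Gq classes. *Rgs10*, *Rgs12* and *Rgs14* make up the R12 subfamily, and *Rgs17* and *Rgs19* belong to the RZ subfamily.

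The sequences below show the region just upstream of *Rgs16* and the coding starts that set members of the family apart. The first run is the 246 bases that precede the start of *Rgs16* in GENCODE M21 (sequence from RefSeq, GRCm38.p6, chr1:153740103-153740348, plus strand). It is printed because *Rgs16* had the largest rise among transcripts called higher with a mean of at least 100 counts. The capitals mark a CCAAT box on the minus strand, a pair of overlapping GC boxes on the minus strand and a TATA-like run.

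Rgs16 upstream: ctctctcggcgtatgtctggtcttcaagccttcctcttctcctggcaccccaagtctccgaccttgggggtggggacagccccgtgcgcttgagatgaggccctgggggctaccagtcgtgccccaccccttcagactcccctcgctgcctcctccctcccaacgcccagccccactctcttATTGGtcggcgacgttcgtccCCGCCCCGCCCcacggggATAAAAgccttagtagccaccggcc

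The motifs were searched on both strands of RefSeq windows that reach from 250 bases before to 50 bases after a start. The TATA-like letters ATAAAA lay 29 bases before the RefSeq start of *Rgs16* and were found in 18.5% of 32851 windows. CCAAT lay 68 bases before it and was found in 37.4% of windows, and GGGCGG lay 47 and 42 bases before it and was found in 35.7%. The cAMP response element TGACGTCA was found in 1.79% of windows and in 0 of the 13 windows of the members. With a share this low, that count does not set the members apart. Its shorter run TGACG was in 20.8% of windows and in 3 of the 13, of *Rgs2*, *Rgs4* and *Rgs12*. The AP-1 site TGACTCA was in 5.20% of windows and in 2 of the 13, of *Rgs12* and *Rgs17*. No window lay at the annotated start of the called transcripts *Rgs12-206* and *Rgs3-204*, so these promoters were not searched. GC content of the *Rgs16* window was 66% and it held 22 CpG dinucleotides, against medians of 52.7% and 7 over all windows. This was not particular to *Rgs16*, since the windows of *Rgs2* (70% and 33) and *Rgs10* (76% and 34) held more, while those of *Rgs4* (53% and 13) and *Rgs5* (52.3% and 6) held less. GGGCGG was in 9 of the 13 windows of the members. Each match is a description of letters and not of a factor bound there.

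The second set gives the first 30 coding bases (GENCODE M21 transcripts), with the second codon in capitals.

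Rgs16-201: atgTGCcgcaccctagccaccttccccaac
Rgs4-201: atgTGCaaaggacttgcaggtctgccggct
Rgs5-201: atgTGTaagggactggcagctctgccgcac
Rgs2-202: atgCAAagtgccatgttcctggctgtccag
Rgs12-201: atgTACagggctggggagccagggaaacgg
Rgs12-206: atgAATttggaaaaggggctgtcagatgac

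*Rgs16*, *Rgs4* and *Rgs5* carry a cysteine codon in second place, and proteins that begin in this way are known substrates of the N-degron pathway, which links their stability to oxygen. *Rgs2* carries a glutamine codon there. The encoded proteins of *Rgs16* and *Rgs5* shared 51.1% of aligned residues, those of *Rgs16* and *Rgs2* 50.3%, and those of *Rgs16* and *Rgs4* 47.6%. *Rgs17* and *Rgs19* were the closest pair among the 9 genes at 55.6%. The *Rgs12* runs differ because the isoforms start at different exons, as described further on.

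To compare genes with each other, the levels of tested transcripts were divided by their length and summed, which gives normalised estimated counts per kilobase (kb). In WT the order was *Rgs10* (1619 per kb), *Rgs19* (1333), *Rgs3* (909.9), *Rgs2* (863), *Rgs12* (281), *Rgs17* (180.0), *Rgs16* (167), *Rgs4* (3.26) and *Rgs5* (1.32). *Rgs3* and *Rgs2* differed by less than the combined between-library SD of their main transcripts, as did *Rgs17* and *Rgs16*. In KD *Rgs16* came first at 1413 per kb, followed by *Rgs19* (1351), *Rgs10* (1299), *Rgs3* (1151), *Rgs2* (1029), *Rgs12* (319) and *Rgs17* (168). *Rgs16* thus moved from seventh to first place, although in KD it did not differ from *Rgs19*, nor *Rgs19* from *Rgs10*, beyond that SD. *Rgs4* (4.46 per kb) and *Rgs5* (1.48) stayed at the bottom, and the genes lie 45.7 kb apart on chromosome 1.

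**Figure D1:**
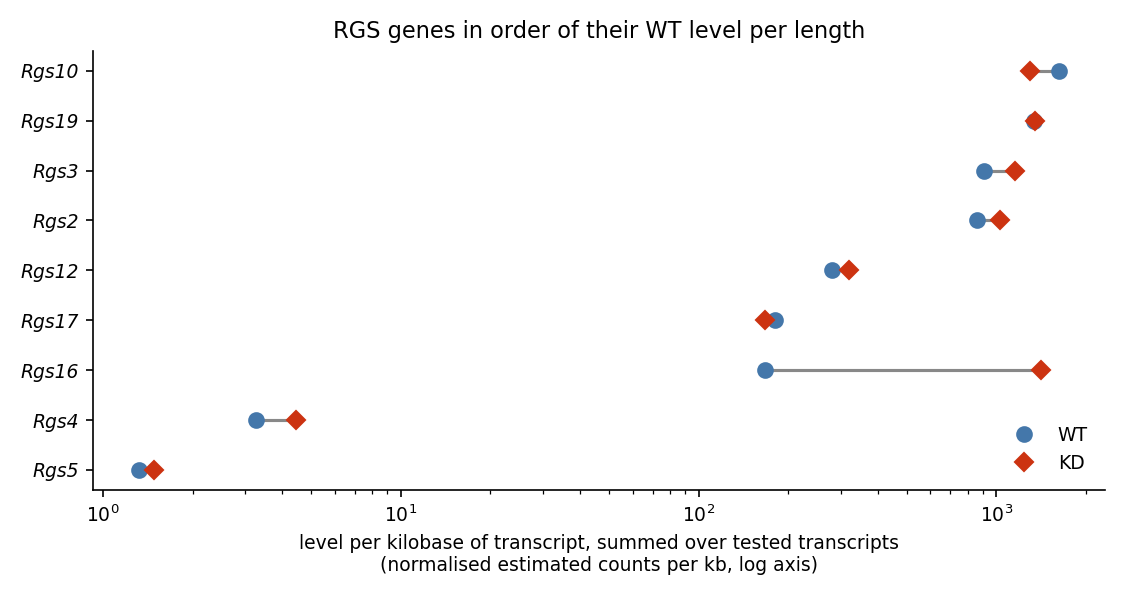
Level of each RGS gene per kilobase of transcript, summed over tested transcripts, on a log axis, with circles for WT and diamonds for KD (each a mean of 2 libraries, no error shown). *Rgs16* moves from 167 to 1413 per kb, while the other 8 genes shift little on this axis.

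Of the 23 member transcripts 3 were called, and all 3 were higher in KD. Over all transcripts 12.5% were called, 7.26% higher and 5.21% lower, so that 58.2% of calls were higher, and 57.2% were by the Wald test. Relative to *Actb*, by the Wald test, 5.47% were. As the members were picked from this contrast, nothing is read from their count. The median log2(fold change) of the 23 was -0.06, with 11 above and 12 below 0, and that of all transcripts was -0.01. By gene, 3 of 9 had a transcript called higher and 0 one called lower, where 10.1% and 7.43% of all genes did. In the deposited gene table, which combines the transcripts of a gene, *Rgs16*, *Rgs3*, *Rgs12* and *Rgs10* were under the same threshold, 4 of 9 genes against 24% of all genes.

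**Figure D2:**
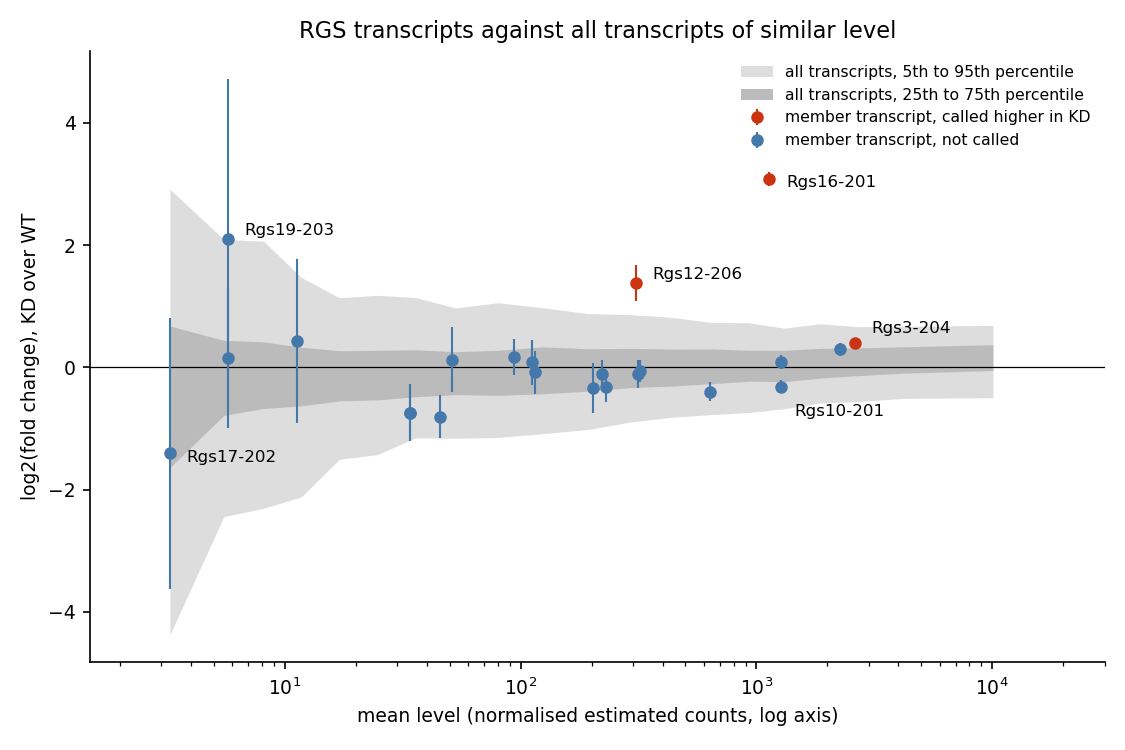
Log2(fold change) of the 23 member transcripts against their mean level in normalised estimated counts (log axis), with bars of 1 SE, over the range of all transcripts in 20 classes of level. *Rgs16-201* (3.08) and *Rgs12-206* (1.38) lie above the band that holds the 5th to 95th percentile, and most others lie within the inner band.

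The table gives the variance over all 4 libraries, and with the effect this fixes the spread within groups. For each transcript it can therefore be said whether the libraries of WT and KD could overlap at all. They could not for 12 of the 23 member transcripts, had to for 9, and for 2 this was undetermined. Over all transcripts the groups could not overlap for 54.8%, so this too is common with 2 libraries a group. Among all transcripts of similar level, in classes of 1710, the members above the 95th percentile of log2(fold change) were *Rgs16-201*, *Rgs12-206* and, at a mean near the floor, *Rgs19-203*. Between the 25th and 75th percentiles lay 13 of the 23.

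**Figure D3:**
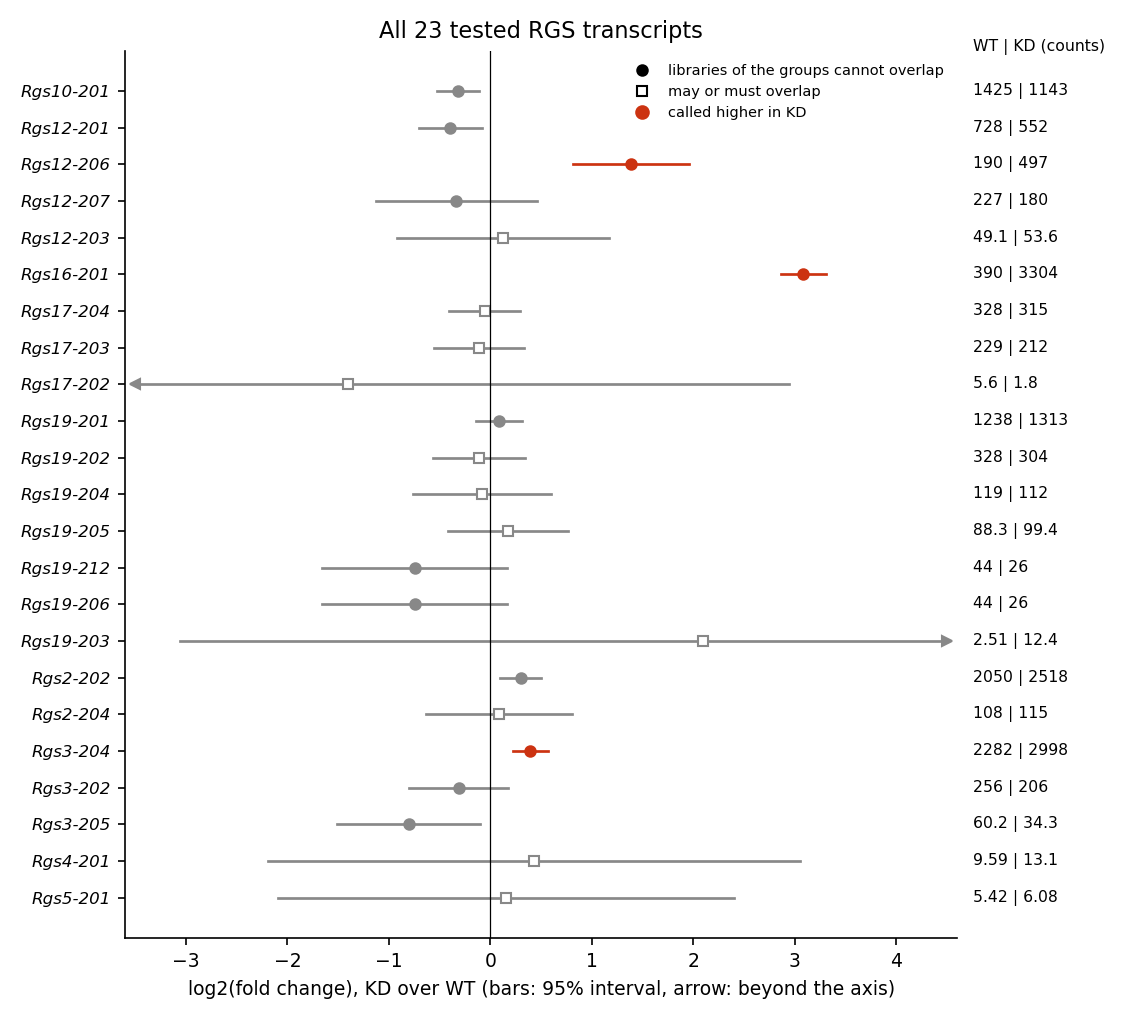
Log2(fold change) of all 23 tested RGS transcripts with 95% intervals, and the levels in WT and KD in normalised estimated counts at the right. Filled circles mark transcripts whose groups cannot overlap (12 of 23) and red marks the 3 called higher; *Rgs3-204* (0.39) is one of them, but is at -0.06 relative to *Actb*.

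Within the R4 subfamily *Rgs16* stood apart. This gene (ENSMUSG00000026475.7, chr1:153740349-153745468, plus strand, GRCm38) has 1 annotated transcript, ENSMUST00000027748.7, with 5 exons, 2339 bases and 201 residues, and its protein limits Gi and Gq signalling. Its level was 389.8 counts in WT and 3304 in KD, with an SD between libraries of 0.08 on the log2 scale (2 libraries a group), so the groups could not overlap. The log2(fold change) was 3.08 (SE 0.11, 95% interval 2.86 to 3.31), a level 8.47 times higher. The SD was below the median of 0.10 over 2193 transcripts of similar level. Every 31-base word of this transcript was absent from the other tested member transcripts and from all genes outside the group. Of all transcripts 283 had a larger log2(fold change), 33 of them called, and the largest mean among the 283 was 346 counts.

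*Rgs3*, a larger R4 member that also binds the beta and gamma subunits, had 3 tested transcripts of which 1 was called. *Rgs3-204* (568 residues) was at 2282 counts in WT and 2998 in KD with an SD of 0.02, and the groups could not overlap. It rose by 0.39 (SE 0.09), but was at -0.06 relative to *Actb* and at 0.21 after centring on GC content, where the Wald test no longer called it. *Rgs3-202* (966 residues) was at 256 counts in WT and 206 in KD, and *Rgs3-205* (433 residues) at 60.2 and 34.3. Neither was called, and their differences of -0.31 (SE 0.25) and -0.80 (SE 0.36) were of the opposite sign to that of *Rgs3-204*. The share of *Rgs3-204* in the gene was 87.8% in WT and 92.6% in KD. Of its 31-base words 48.9% also occurred in *Gm5763*, a processed pseudogene on chromosome X that was not analysed here, so the level of *Rgs3-204* is uncertain by the reads the pseudogene could hold. The same holds for *Rgs3-202*, with 34.5%. Only 9.48% of the words of *Rgs3-204* and 2.33% of those of *Rgs3-202* were absent from other tested member transcripts and genes outside the group. The variance from read assignment made up 52.6% of the variance of the effect for *Rgs3-202*, 51.8% for *Rgs3-205* and 9.74% for *Rgs3-204*.

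*Rgs2*, an R4 member that acts preferentially on Gq, had 2 tested transcripts and neither was called. *Rgs2-202* was at 2049.8 counts in WT and 2518 in KD with an SD of 0.10, and the groups could not overlap. Its difference of 0.30 (SE 0.10, 95% interval 0.09 to 0.50) was not called, and was -0.16 relative to *Actb*. *Rgs2-204*, which encodes 130 residues against 211, was at 108 and 115 counts, and its groups overlapped.

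*Rgs4* and *Rgs5*, R4 members best known from brain and from pericytes, were near the floor. *Rgs4* was at 9.59 counts in WT and 13.1 in KD, and *Rgs5* at 5.42 and 6.08. The 95% intervals of their log2(fold change) ran from -2.19 to 3.05 and from -2.096 to 2.398, so changes of several-fold in either direction were not detectable at these counts. The 3 genes with the cysteine codon thus differed widely in level, and *Rgs16* alone among them had more than 14 counts in either group.

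In the R12 subfamily *Rgs12* showed a difference between isoforms. RGS12 is a scaffold whose longest form carries PDZ and PTB domains ahead of the RGS domain, followed by Ras-binding and GoLoco regions. The gene (chr5:34949445-35039644, plus strand) had 4 tested isoforms. *Rgs12-201*, with 17 exons and 1381 residues, starts at the first promoter. *Rgs12-206* (733 residues) and *Rgs12-207* (803 residues) start 39.9 and 40.1 kb further downstream, and *Rgs12-203* (499 residues) 49.6 kb downstream. The annotation marks the starts of the 3 shorter forms as supported by CAGE. Its transcript support level, where 1 is best, was 5 for *Rgs12-206* and *Rgs12-207* and 1 for *Rgs12-201* and *Rgs12-203*.

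*Rgs12-206* (ENSMUST00000114284.7) was at 190.3 counts in WT and 497 in KD with an SD of 0.29, and the groups could not overlap. It rose by 1.38 (SE 0.29, 95% interval 0.81 to 1.95), a level 2.61 times higher. *Rgs12-201* was at 728 counts in WT and 552 in KD (-0.40, SE 0.16), with groups that could not overlap, but was not called. *Rgs12-207*, which shares its coding start with *Rgs12-206* and ends at another last exon, was at 227 and 180.0 counts (-0.34, SE 0.41). *Rgs12-203* was at 49.1 and 53.6 counts, and its groups overlapped. The share of *Rgs12-206* in the gene was 15.9% in WT and 38.7% in KD, while that of *Rgs12-201* was 60.9% and 43.1%.

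Summed over the 4 isoforms, *Rgs12* was at 1195 counts in WT and 1283 in KD, a difference of 0.10 on the log2 scale. The share of *Rgs12-206* rests on few bases, while 42.8% of the 31-base words of *Rgs12-201* were its own. Only 4.59% of the 31-base words of *Rgs12-206* were its own among the tested member transcripts and the genes outside the group, since 86.6% also occurred in *Rgs12-201* and 67.4% in *Rgs12-207*. The variance from read assignment made up 59.3% of the variance of its effect, compared with 22.5% for *Rgs16-201*.

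**Figure D4:**
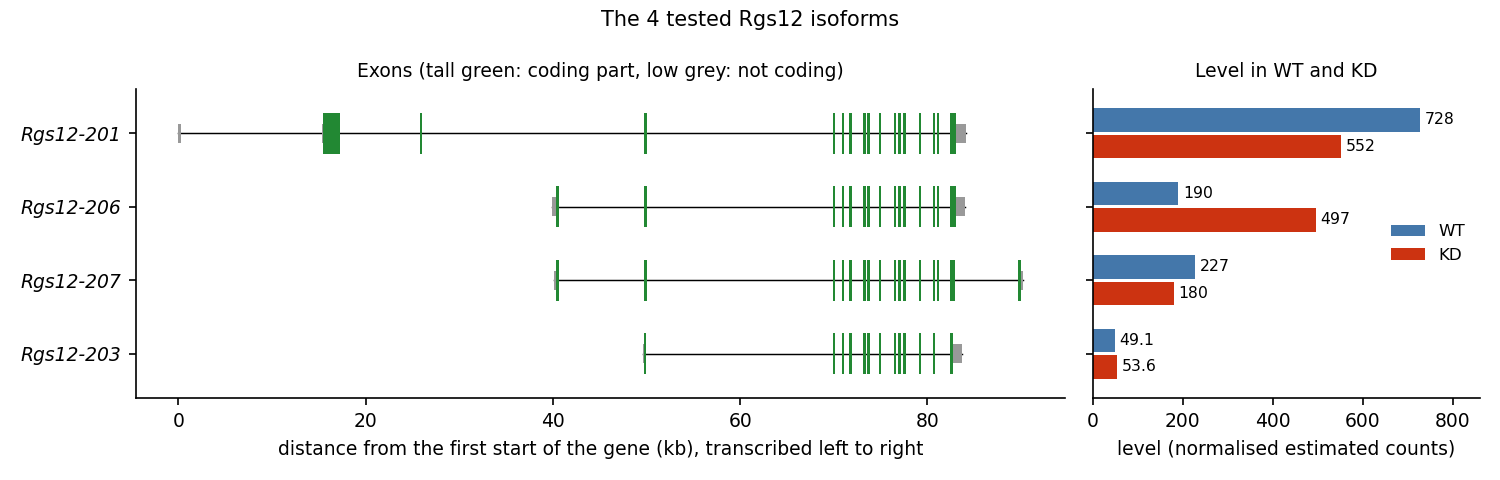
Left, exons of the 4 tested *Rgs12* isoforms by distance in kb from the first start; right, their level in WT (blue) and KD (red) in normalised estimated counts, each the mean of 2 libraries. *Rgs12-206* rises from 190.3 to 497 counts, *Rgs12-201* is at 728 and 552, and the 2 share most of their exons.

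*Rgs10*, the smallest R12 member described here with 181 residues, had the highest level per length in WT. *Rgs10-201* was at 1425 counts in WT and 1143 in KD with an SD of 0.07, and the groups could not overlap. The difference of -0.32 (SE 0.10, 95% interval -0.52 to -0.11) was not called.

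The RZ genes *Rgs17* and *Rgs19*, whose proteins act on Gi, Gz and Go, had 10 tested transcripts, and none was called. *Rgs19-201* was at 1238 counts in WT and 1313 in KD (0.08, SE 0.12), and this sign turned relative to *Actb* (-0.37) and after centring on GC content (-0.03). Its 95% interval of -0.15 to 0.32 spans 0. *Rgs19-202* was at 328 counts in WT and 304 in KD (-0.11, SE 0.23), and *Rgs19-204* at 119 and 112 (-0.08, SE 0.35). *Rgs19-205* was at 88.3 and 99.4 counts (0.17, SE 0.30). *Rgs19-206* and *Rgs19-212* have the same sequence and the same values, 43.95 counts in WT and 26.04 in KD, and stand for 1 measurement. *Rgs19-203* was at 2.51 and 12.4 counts with an SD of 2.63, and its groups overlapped.

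*Rgs17-204* was at 328 counts in WT and 315 in KD (-0.06, SE 0.18), and *Rgs17-203* at 229 and 212 (-0.11, SE 0.23). The transcripts encode the same 210 residues and differ in the length after the stop codon, 7290 bases against 784. The share of *Rgs17-204* in the gene was 58.3% in WT and 59.6% in KD. *Rgs17-202*, at 5.60 and 1.80 counts, was near the floor. Of the 31-base words of *Rgs17-204* 0.35% were its own and of those of *Rgs17-203* 0%, but this leaves out words shared with *Rgs17-202*. As *Rgs17-202* also has 7290 bases after the stop codon, these percentages do not measure the split between *Rgs17-204* and *Rgs17-203*. The variance from read assignment made up 24.1% of the variance of the effect for *Rgs17-204* and 19.9% for *Rgs17-203*. The sign for *Rgs17-204* turned after centring on GC content (0.34).

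The surroundings of the genes were also examined. *Rgs16* and *Rgs12* each had 4 protein-coding genes with rows within 250 kb, and 0 of these had a called transcript. The same held for *Rgs17*, with 0 of 4. Within that distance a called transcript was found in 1 of 11 genes for *Rgs3*, 2 of 4 for *Rgs2*, 3 of 4 for *Rgs4*, 1 of 2 for *Rgs5*, 3 of 10 for *Rgs10*, 4 of 11 for *Rgs19* and 5 of 17 for *Rgs14*. Over all genes 17.4% had one, in either direction.

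The other genes that carry the Rgs name had 6 genes with rows, the R7-binding proteins included. None had a called transcript, where 17.4% of all genes had one. *Rgs20*, the third RZ gene, had the most counts, with 993 in WT and 888 in KD. Of 14 genes with an RGS or RGS homology domain under another name, 1 had a transcript called higher and 2 one called lower, where 10.1% and 7.43% of all genes did. These were the sorting nexins *Snx13* (0.41, SE 0.09, but below 0 relative to *Actb*) and *Snx14* (-1.36, SE 0.26), and the guanine nucleotide exchange factor *Arhgef12* (-0.34, SE 0.10). Each of these values is that of 1 transcript. Summed over tested transcripts *Snx13* was at 0.39, *Snx14* at -0.62 and *Arhgef12* at only -0.10. *Arhgef1* had the most counts, 5071 in WT and 4818 in KD, and was not called. The median over the 14 genes was -0.09, against -0.03 over all 21927 gene symbols.

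Among the alpha subunits on which RGS proteins act, 5 of 14 genes had a transcript called higher and 2 one called lower, against 10.1% and 7.43% of all genes, with a median of 0.13. *Gnas*, which encodes the stimulatory alpha subunit that most RGS proteins do not act on, had the most counts and, among the called genes, the largest rise (0.39, SE 0.08). *Gnai2*, *Gna11*, *Gna12* and *Gna13* were called higher by 0.23 to 0.31, and all 5 lay below 0 relative to *Actb*. *Gnaq*, the Gq alpha subunit, was called lower (-0.67, SE 0.09), from 3072 counts in WT to 1933 in KD, and *Gnai3* was called lower by 0.54.

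Of the beta and gamma subunits 3 of 14 genes had a transcript called higher and 2 one called lower, against 10.1% and 7.43% of all genes, with a median of -0.15. The gamma subunit *Gng12* had 4 of 8 transcripts called higher, the largest by 1.31 (SE 0.15), and its summed level was 4280 counts in WT and 9378 in KD. *Gng2* was called lower by 1.15 (SE 0.16). *Gnb1* had the most counts, 13968 in WT and 16610 in KD, and was not called.

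Other proteins that act on the alpha subunit or the receptor were GoLoco proteins, exchange factors and arrestins, of which 1 of 10 genes was called higher and 3 lower, against 10.1% and 7.43% of all genes, with a median of -0.34. *Ric8a*, an exchange factor and chaperone of alpha subunits, was called higher by 0.29 (SE 0.08), but lay below 0 relative to *Actb*. The GoLoco gene *Gpsm1* was called lower by 0.84 (SE 0.14). *Ccdc88a*, which encodes the exchange factor girdin, had the most counts and was called lower, from 4821 counts to 2906.

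Of 32 G protein-coupled receptors with rows 1 had a transcript called higher and 6 one called lower, against 10.1% and 7.43% of all genes, with a median of -0.27. A minor transcript of the lysophosphatidic acid receptor *Lpar1* was called higher (1.21, SE 0.39), while the summed level of the gene was 4957 counts in WT and 5073 in KD. *P2ry14* had the largest fall among the called receptors (-1.09, SE 0.32), and *Ptgfr*, the prostaglandin F receptor, had the most counts, from 7558 in WT to 5404 in KD. Of 8 effectors 0 had a transcript called higher, and the phospholipase *Plcb4* was the 1 gene called lower, against 10.1% and 7.43% of all genes, from 522 counts in WT to 159 in KD (-1.71, SE 0.19). *Adcy6*, an adenylyl cyclase, had the most counts, 6153 in WT and 6493 in KD.

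**Figure D5:**
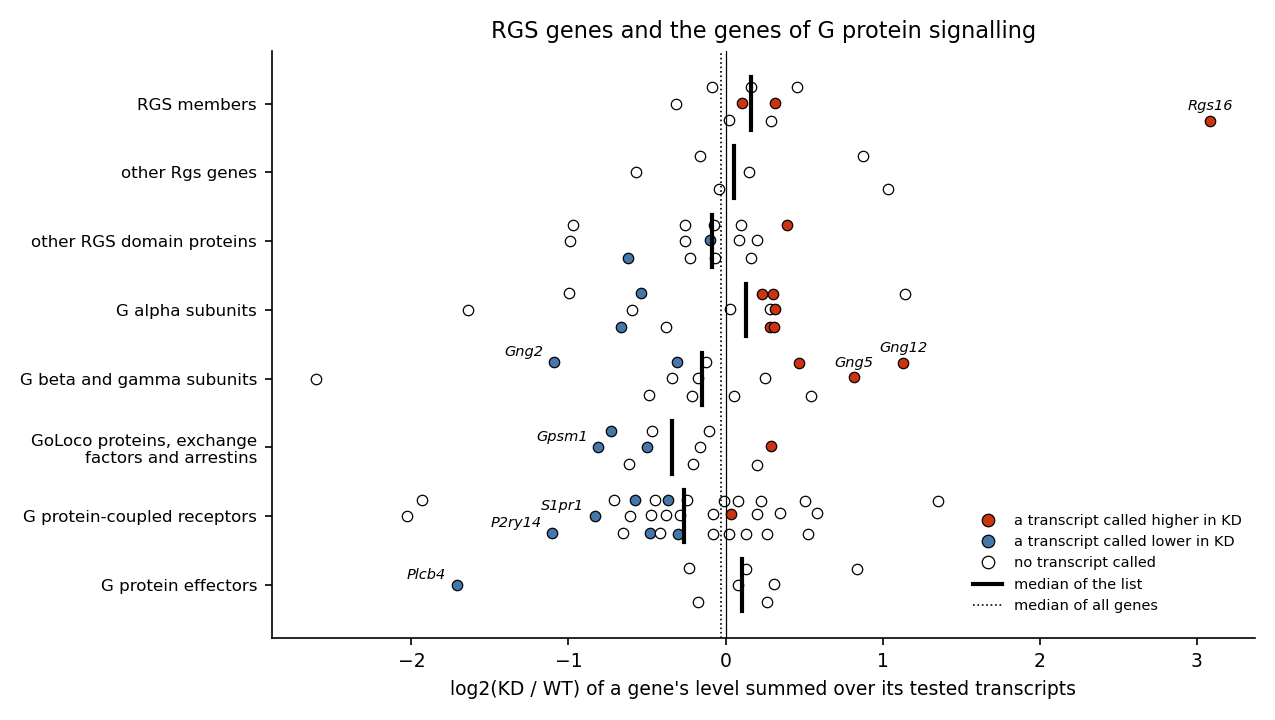
Each point is a gene, placed at log2(KD / WT) of its level summed over tested transcripts, in the RGS group and 7 other lists of G protein signalling, with a bar at the median of each list. *Rgs16* (3.08) is the farthest to the right, and the medians lie between -0.34 for the GoLoco list and 0.16 for the RGS genes. The latter is the value of *Rgs5*, which is near the floor at 5.42 counts in WT and 6.08 in KD. All medians lie below 0 relative to *Actb*.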

How the data were processed

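Raw reads of 2 KD and 2 WT libraries were trimmed, quantified with Kallisto and compared with Sleuth by the authors, and the submitters' processing notes also name bcl2fastq 2.17, HISAT2 and the build GRCm38. A table of transcripts and a table of genes were used, and both hold that comparison over pooled libraries. The deposited effects, standard errors, means and variances are on the natural log scale of normalised estimated counts plus 0.5. The deposited likelihood ratio and Wald p-values and q-values were used for calls at 0.05, and the deposited likelihood ratio score was not printed. No new test was made on the members except for the recalculated q-values of the alternatives.

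Natural-log effects were rescaled to log2. A level is the exponential of the group mean, less 0.5, and 95% intervals are from the SE. The within-group sum of squares was 3 times the variance less the squared effect, and groups were called unable to overlap where the effect exceeded its square root. Positions, lengths and sequences are from GENCODE M21 on GRCm38, matched for 98.6% of transcripts, and promoters are from RefSeq (GRCm38.p6). Scripts used Python 3.11.15, pandas 2.3.3, numpy 2.4.6, scipy 1.17.1 and Biopython 1.88, and were tested on simulated data.

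The members and lists were chosen with earlier results of these data known. The text names *Setd2*, *Actb* and every member transcript. In each list except that of fibroblast markers, of which no gene is named, it also names the gene with the most counts. The called genes with the largest rise and fall in these lists are named too. *Adgre1*, *Arhgef12* and *Gnai3* are named outside this rule. The change given for a called gene of a list is that of its called transcript with the largest change. The genes *Sema7a*, *Gm5763*, *Rgs20*, *Gnai2*, *Gna11*, *Gna12* and *Gna13* were added after their values were seen. The design text speaks of independent transfections, but no label ties a library to one, so the spread between libraries may be technical. Alternatives were the Wald q-value, a mean of at least 100 counts, centring on the median, scaling to *Actb*, centring within 50 classes of GC content, removing the offset and summing over transcripts. Centred and rescaled effects were tested with Wald q-values recalculated over all transcripts. Each transcript kept its deposited SE, so the error of the *Actb* effect was left out.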

Additional observations from a re-analysis of the deposited data

How the results depend on the processing

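The 3 called member transcripts became 5 with the Wald q-value and 5 after centring on the median of all transcripts. With a mean of at least 100 counts and a recalculated adjustment 5 of 14 were called. Over all transcripts the share called was 12.5% in the main setting, 18.2% with the Wald q-value and 18.4% after median centring. It was 34.2% with a mean of at least 100 counts, 33.5% relative to *Actb* and 15.4% after centring on GC content. Every centred or rescaled setting was tested with recalculated Wald q-values, since the likelihood ratio test could not be repeated, and is to be read against the Wald count of 5. With the Wald q-value, with a mean of at least 100 counts and after median centring, *Rgs2-202* (higher) and *Rgs10-201* (lower) joined the 3. After centring on GC content 5 were called, 3 higher and 2 lower, without *Rgs3-204*. Relative to *Actb* 12 were called, 2 higher and 10 lower, but the SE of the *Actb* effect (0.11) was not added to theirs. These calls may therefore be too many. In this setting 5.47% of calls among all transcripts were higher, against 57.2% with the Wald q-value unscaled and 58.2% with the likelihood ratio test. The log2(fold change) of *Rgs16* was between 2.63 and 3.09 under its 5 alternatives and kept its side of the threshold where a test was made. The number of members whose groups cannot overlap was 12 from either set of deposited variances.

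In the pathway lists, whose genes with rows are given by list above, 11 genes had a transcript called higher. Over all genes 10.1% had one called higher and 7.43% one called lower, and shares of all transcripts in the alternatives are given above. The 11 became 17 with the Wald q-value. With that test the number was also 17 after median centring and 3 relative to *Actb*. The 16 genes with one called lower became 19 with the Wald q-value, and with that test 45 relative to *Actb*, again without the SE of the *Actb* effect. These alternatives for the lists were added after seeing the data.

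The sign reversed relative to *Actb* for *Rgs2* (-0.16), *Rgs3* (-0.063), *Rgs4* (-0.023), *Rgs5* (-0.30) and *Rgs19* (-0.37). With centring on GC content it reversed for *Rgs17* (0.34) and *Rgs19* (-0.027). Summing over transcripts gave 0.10 for *Rgs12* in place of -0.40 for *Rgs12-201*. The first follow from the rise of *Actb* itself. That of *Rgs12* follows from the sum, which takes in *Rgs12-206* (190.3 counts in WT and 497 in KD) beside *Rgs12-201* (728 and 552). The cause of the reversals with GC content was not tested.

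No paired analysis was possible because the tables hold no values of single libraries, and leaving out each replicate was not run for the same reason. Counts under about 20, as for *Rgs4* and *Rgs5*, limit what can be seen.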
